A study of Arabidopsis thaliana with 16 samples.

Results

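The circadian clock genes of Arabidopsis thaliana were followed in whole seedlings kept with ethanol vapour and in control seedlings. The set was taken by locus code: 35 core and accessory clock genes of the 27416 genes in the deposited count table. By the textbook peak time of their transcripts, 15 were classed as morning genes and 14 as evening genes. The other 6 were left unclassed, their rhythm being taken as weak or its timing as not sure. Of the 35, 34 passed the filter on low counts. PRR9 did not, with 1 to 12 counts per library.

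Seedlings grew on agar plates at 22 °C in cycles of 16 h light and 8 h dark, and RNA was taken from the whole plant. The group EtOH_3d had been given gaseous ethanol for 3 d from an age of 11 d, and its control is the group moc_3d. The group EtOH_1d had been given gaseous ethanol for 1 d from an age of 13 d, and its control is moc_1d. The label moc is not spelled out. The sources used here name no ecotype, no ethanol dose and no hour of harvest. Clock transcripts change with the hour, so any difference in the hour of collection between groups cannot be told apart from ethanol or from duration in the values that follow. Comparisons rest on 4 libraries in EtOH_3d, 3 in moc_3d, 4 in EtOH_1d and 3 in moc_1d. In the count table, replicate 1 of moc_1d and replicate 3 of moc_3d are equal at all 27416 genes, and both were left out. No label says whether the replicates were grown on separate plates, and p-values here cover the spread between these libraries alone, part of which may be technical.

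The plant clock is built from transcription factors that repress one another in turn through the day. CCA1 and LHY, a pair of MYB-like factors made around dawn, repress evening genes such as TOC1, GI and ELF4. The pseudo-response regulators PRR9, PRR7, PRR5 and TOC1 follow one another from morning to dusk and repress CCA1 and LHY. The evening complex of ELF3, ELF4 and LUX closes the loop at night by repressing PRR9, PRR7 and LUX. RVE8, RVE4 and RVE6, with their LNK partners, instead activate evening genes. ZTL and its relatives FKF1 and LKP2 are blue-light receptors that mark clock proteins for degradation. Sugar made by photosynthesis and cold both feed into this loop: PRR7 is a link for sugar, and COR27 and COR28 are cold-induced night-time repressors of clock genes.

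The classes differed in short sequence motifs near their gene starts. The choice of genes did not use the motifs, but the motifs searched are known ones of clock genes. Their shares are therefore a description and no independent support for the classes. The window searched on both strands ran from 250 bases before to 50 bases after the gene start in the RefSeq annotation of TAIR10.1. The evening element, AAAATATCT, is the motif bound by CCA1, LHY and the RVE factors. It stood in the windows of 10 of 14 evening genes (71.4%), 2 of 15 morning genes (13.3%) and none of the 6 unclassed genes, against 2.86% of the windows of 26709 protein-coding genes. The G-box, CACGTG, bound by bHLH and bZIP factors, stood in 10 of 15 morning genes (66.7%), 3 of 14 evening genes (21.4%) and none of the unclassed genes, against 7.79% of all windows. The CCA1-binding site AAAAATCT was in 5 of the 35 windows, and 7.96% of all windows hold it. The LUX-binding site, searched as GATTCG or GATACG, was in 9 of the 35 windows, against 14.5% of all. A match describes letters in a window and is not evidence of binding.

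**Figure D1:**
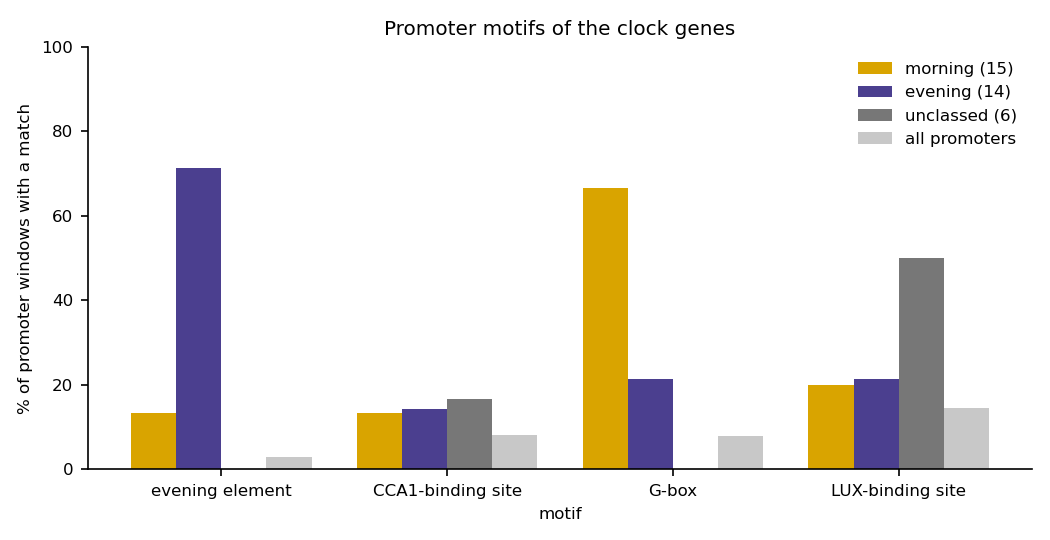
Percent of promoter windows (300 bases) that hold each motif on either strand, for morning (15), evening (14) and unclassed (6) clock genes and for all 26709 protein-coding genes. The evening element bar is tallest for evening genes (71.4%) and the G-box bar is tallest for morning genes (66.7%).

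A choice of the stretches that carry these motifs follows, each read 5′ to 3′ on the gene's own strand with the motif in capitals. Not printed are, among others, the evening element of RVE7, a morning gene, and the G-box of LUX, an evening gene. AGATATTTT is the evening element read on the other strand. Among morning genes, CCA1 and LHY hold 1 G-box each and LNK3 holds 2. The LNK3 stretch lies at chr3:3923324-3923399 (plus strand), the CCA1 stretch at chr2:19245378-19245423 (plus) and the LHY stretch at chr1:37926-37971 (minus).
LNK3: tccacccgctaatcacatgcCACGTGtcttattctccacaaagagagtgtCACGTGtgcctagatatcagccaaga
CCA1: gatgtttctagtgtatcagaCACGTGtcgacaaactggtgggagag
LHY: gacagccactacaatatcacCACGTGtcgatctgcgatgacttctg

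Among evening genes, the sequences show how the number and direction of evening elements vary. CCR2 holds 3 elements in a stretch at chr2:9266560-9266653 (minus strand) and COR27 holds 2 at chr5:17199911-17199969 (minus). LUX holds 1 at chr3:17182969-17183017 (plus) and TOC1 holds 1 at chr5:24674792-24674840 (plus). FKF1 holds 2, of which the stretch at chr1:25508433-25508481 (plus) shows the one farther upstream, and the other lies at its gene start. In PRR5, at chr5:8358705-8358764 (minus), the element stands next to a CCA1-binding site. Both read on the other strand there, the CCA1-binding site as AGATTTTT.
CCR2: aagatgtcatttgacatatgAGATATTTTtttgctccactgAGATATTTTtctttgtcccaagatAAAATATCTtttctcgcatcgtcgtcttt
COR27: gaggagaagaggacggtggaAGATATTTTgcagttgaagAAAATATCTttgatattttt
LUX: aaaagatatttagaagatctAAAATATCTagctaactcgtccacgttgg
FKF1: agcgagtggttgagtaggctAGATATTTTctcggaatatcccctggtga
TOC1: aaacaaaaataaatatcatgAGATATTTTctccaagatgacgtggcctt
PRR5: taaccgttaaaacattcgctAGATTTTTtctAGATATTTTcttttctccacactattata

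Total counts were 3695511 to 6340751 in EtOH_3d, 5407735 to 7696919 in moc_3d, 5659976 to 15943927 in EtOH_1d and 6056980 to 11458250 in moc_1d. The EtOH_3d libraries are the shallowest on the whole, and the 35 clock genes took 0.35% to 0.388% of their counts, against 0.347% to 0.354% in moc_3d. Levels are given as CPM, counts scaled to the same library total after adjustment by the TMM method. The whole-plant label was checked by marker genes: 3 shoot markers stood at 1900 to 25100 CPM and 5 root markers at 1.34 to 1370 CPM in every library. The 3 flower markers reached at most 2.01 CPM and 2 seed markers at most 1.26 CPM. COBL9, the lowest root marker at 1.34 to 3.91 CPM, overlapped the flower markers. In a principal component analysis of log2 CPM over all genes tested, EtOH_3d replicate 2 stood apart on the first component (12.9% of the variance), at 45.4 against -14.4 to 6.51 in the other libraries. On the second (11.5%), moc_3d replicate 1 was the farthest, at 34.7 against -20.3 to 10.8. In such whole-plant RNA, fewer cells that make a transcript and less of it per cell cannot be told apart.

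After 3 d of ethanol, no clock gene passed the test over all genes. In edgeR's quasi-likelihood test with Benjamini-Hochberg adjustment at 0.05, 0 of 34 members were called in EtOH_3d against moc_3d, where 0.554% of the 18419 genes tested were called. The members had been chosen with earlier results of these data known, so counts at an unadjusted p, here and below, are a description and no test of the set. At an unadjusted p under 0.05, the count was 13 of 34 (38.2%), 10 higher and 3 lower in EtOH_3d, against 8.82% of all genes. With DESeq2 that count was 9 and with limma-voom 10, and neither called a member after adjustment. Libraries of the groups did not overlap for 7 members, 5 above and 2 below, while 7.75% of all genes do not overlap. Without the libraries that stood apart, the count of 13 was 14 without EtOH_3d replicate 2 and 11 without moc_3d replicate 1, where LHY, FKF1 and CCR2 were no longer in it. It was 8 without EtOH_3d replicate 3, without moc_3d replicate 2 or without moc_3d replicate 4. Differences were small: log2 fold changes of the 34 genes ran from -0.41 to 0.65 with a median of 0.08, against a median of 0 over all genes. RVE4, LNK1, LNK3 and COR28 kept an unadjusted p under 0.05 in all 7 fits that leave out 1 library of these groups.

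**Figure D2:**
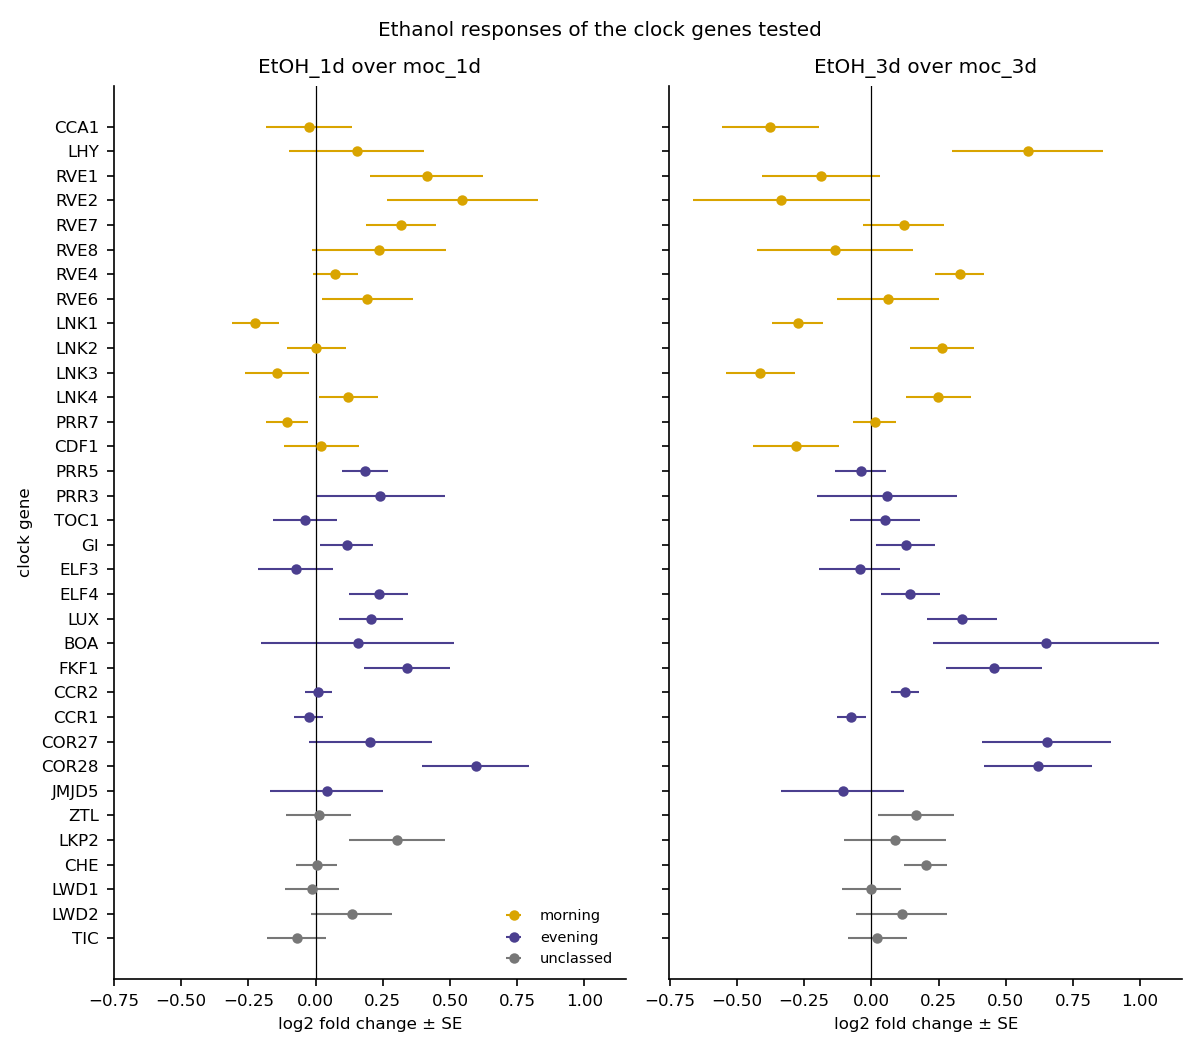
Log2 fold change of each of the 34 tested clock genes in EtOH_3d over moc_3d and in EtOH_1d over moc_1d, by class, with bars of 1 SE. After 3 d the estimates lie between -0.41 (LNK3) and 0.65 (COR27 and BOA), and none passed the adjusted test at either duration.

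The morning genes were split after 3 d. Of 14 tested, 7 had a positive and 7 a negative estimate, with a median log2 fold change of -0.06. Unadjusted p was under 0.05 for 7 of them, 4 higher and 3 lower in EtOH_3d. The dawn pair CCA1 and LHY had estimates of opposite sign. CCA1 (AT2G46830) stood at 8.18, 12.1, 9.45 and 9.04 CPM in EtOH_3d, against 9.88, 16.1 and 11.0 CPM in moc_3d. The ranges overlap, with moc_3d replicate 2 the highest. Its log2 fold change was -0.38 ± 0.18 (SE; edgeR adjusted p = 0.545), and it was -0.14 without moc_3d replicate 2. LHY (AT1G01060) stood at 4.28, 4.84, 5.20 and 6.03 CPM in EtOH_3d, against 2.74, 4.01 and 3.36 CPM in moc_3d. All 4 ethanol libraries lay above the 3 controls, at low levels. The log2 fold change was 0.58 ± 0.28 (adjusted p = 0.546), and unadjusted p stayed under 0.05 in 3 of the 7 fits without 1 library.

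Among the RVE factors, the clock activator RVE4 had the smallest p of the 34 genes after 3 d. RVE4 (AT5G02840, chr5:648648-651979, plus strand) stood at 60.8, 75.5, 69.3 and 54.1 CPM in EtOH_3d, against 53.8, 51.1 and 49.8 CPM in moc_3d. The groups do not overlap, but EtOH_3d replicate 4 lay just above the highest control. The log2 fold change was 0.33 ± 0.09 (adjusted p = 0.0798). It was called without EtOH_3d replicate 4 (0.41, adjusted p = 0.0149) and with no filter on low counts (0.32, adjusted p = 0.0499). RVE4 in moc_1d, at 54.1 to 62.3 CPM, lay above all moc_3d libraries and within the range of EtOH_3d. Its log2 fold change was 0.08 in EtOH_3d against EtOH_1d and -0.18 in moc_3d against moc_1d. Its close relatives RVE8 and RVE6 had estimates of -0.14 ± 0.29 and 0.06 ± 0.19. RVE1, a factor that joins the clock to auxin, and RVE2, also known as CIR1, had -0.19 ± 0.22 and -0.33 ± 0.33. RVE7 (AT1G18330), also known as EPR1, stood at 16.7, 21.0, 15.3 and 14.7 CPM in EtOH_3d, against 16.1, 13.3 and 16.7 CPM in moc_3d, with a log2 fold change of 0.12 ± 0.15. The last 500 nt of RVE7 share 234 and 278 nt at 100% identity with AT3G10110 and AT3G10113, so its counts may be split or shared.

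The LNK genes, which encode co-activators that bind RVE factors, had estimates of both signs, and differences between these genes were not tested. LNK1 and LNK3 lay lower in EtOH_3d, while LNK2 and LNK4 had positive estimates. LNK3 (AT3G12320) stood at 16.9, 17.2, 15.6 and 14.9 CPM in EtOH_3d, against 24.5, 20.1 and 20.1 CPM in moc_3d. LNK1 (AT5G64170) stood at 50.6, 44.9, 44.0 and 44.8 CPM in EtOH_3d, against 57.4, 53.3 and 56.7 CPM in moc_3d. For both genes every ethanol library lay below every control. The log2 fold changes were -0.41 ± 0.13 for LNK3 (adjusted p = 0.219) and -0.28 ± 0.09 for LNK1 (adjusted p = 0.251). LNK2 and LNK4 had 0.26 ± 0.12 and 0.25 ± 0.12, with overlapping libraries. Without EtOH_3d replicate 3 or moc_3d replicate 4, neither kept an unadjusted p under 0.05. In moc_1d, LNK2 stood at 37.4 to 39.0 CPM and LNK4 at 28.2 to 30.4 CPM. For both genes these values lay above all moc_3d libraries and within the range of EtOH_3d. LNK1, LNK2 and LNK3 overlap another counted gene on the opposite strand, LNK4 overlaps one on its own strand, and the sources used here do not give the strand setting of the counting. The opposite-strand partners of LNK1 and LNK3, AT5G64160 and AT3G12340, had log2 fold changes of -0.08 ± 0.13 and 0.03 ± 0.24. The same-strand partner of LNK4, AT5G06990, had 0.74 ± 0.62 at 0.181 to 2.68 CPM. That of LNK2, AT3G54490, reached at most 1.05 CPM and was not tested.

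Of the remaining morning genes, PRR7 and CDF1 were not called, and PRR9 was below the filter on low counts. PRR7, the repressor that follows CCA1 in the morning, stood at 76.4, 80.1, 77.4 and 68.8 CPM in EtOH_3d, against 77.8, 74.3 and 72.8 CPM in moc_3d, a log2 fold change of 0.01 ± 0.08 with a 95% interval of -0.15 to 0.17. CDF1, a repressor of the flowering gene CO, had -0.28 ± 0.16 (adjusted p = 0.631), with a 95% interval of -0.59 to 0.03. PRR9 had 6, 2, 6 and 5 counts in EtOH_3d, against 1, 5 and 8 counts in moc_3d. A difference in PRR9 was not detectable at these counts, and its last 500 nt are shared in full with AT2G46670, so its counts may be split or shared.

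No evening gene was called after 3 d, and the smallest adjusted p among them was 0.212. Of 14 tested, 10 had a positive estimate, against 9165 of 18419 genes tested, and their median log2 fold change was 0.13, against 0 over all genes. An unadjusted p under 0.05 was found for 5, all higher in EtOH_3d, against 8.82% of all genes. The cold-linked pair COR27 and COR28 had 2 of the 3 largest estimates, beside the low BOA (0.65 ± 0.42). COR28 (AT4G33980) stood at 12.1, 11.8, 18.4 and 17.4 CPM in EtOH_3d, against 6.77, 10.8 and 11.5 CPM in moc_3d. COR27 (AT5G42900) stood at 8.74, 8.06, 10.6 and 8.33 CPM in EtOH_3d, against 7.87, 5.40 and 4.27 CPM in moc_3d. In both genes all ethanol libraries lay above all controls, by a narrow margin. The log2 fold changes were 0.62 ± 0.20 for COR28 (adjusted p = 0.212) and 0.65 ± 0.24 for COR27 (adjusted p = 0.331). The unadjusted p of COR27 was not under 0.05 without moc_3d replicate 4. The COR27 stretch printed above ends just before the gene start and holds 2 evening elements, and COR28 has an evening element after its gene start.

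**Figure D3:**
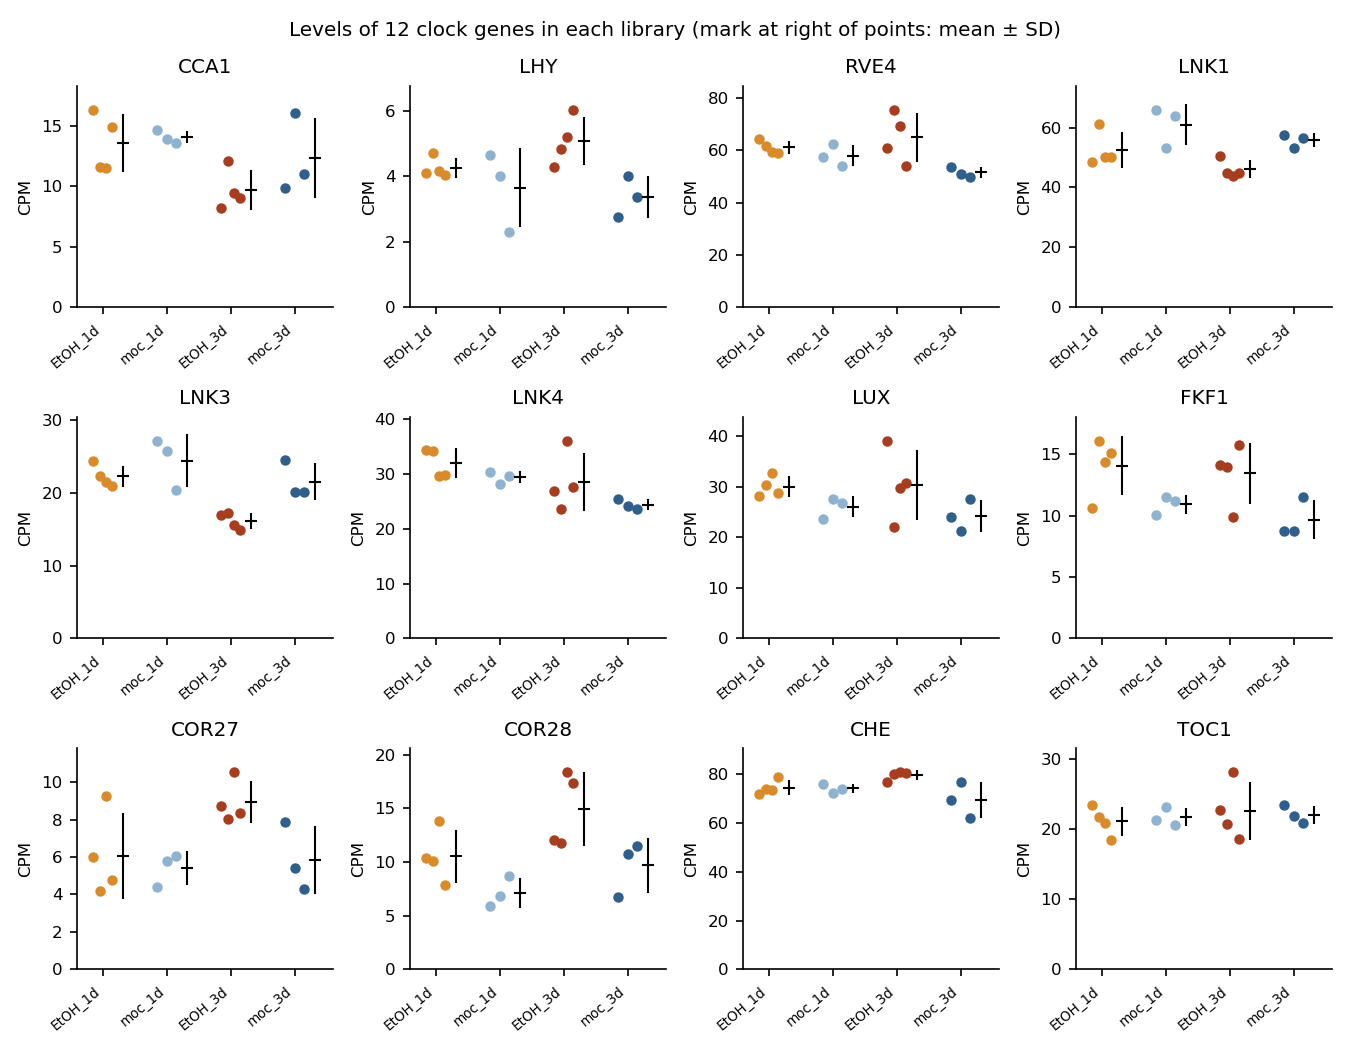
CPM in each of the 14 libraries for 12 clock genes, by group (EtOH_1d, moc_1d, EtOH_3d, moc_3d), with the group mean and 1 SD. LNK3 and LNK1 lie lower and RVE4, LHY, COR27, COR28 and CHE lie higher in every EtOH_3d library than in every moc_3d library, and the TOC1 libraries of the groups overlap.

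Members of the evening complex differed in their estimates. LUX (AT3G46640), its DNA-binding member, stood at 39.1, 22.0, 29.6 and 30.7 CPM in EtOH_3d, against 24.0, 21.2 and 27.6 CPM in moc_3d, with a log2 fold change of 0.34 ± 0.13 (adjusted p = 0.364). The groups overlap, and the estimate was 0.20 without EtOH_3d replicate 1, the highest library. ELF4 (AT2G40080) stood at 43.9, 40.3, 59.9 and 51.8 CPM in EtOH_3d, against 41.0, 42.3 and 50.5 CPM in moc_3d, a log2 fold change of 0.14 ± 0.11. ELF3 (AT2G25930), the scaffold of the complex, stood at 17.7, 16.1, 20.2 and 11.2 CPM in EtOH_3d, against 16.1, 16.5 and 17.9 CPM in moc_3d. Its log2 fold change was -0.04 ± 0.15, and EtOH_3d replicate 4 was the lowest. ELF3, LUX, FKF1 and BOA, a relative of LUX, also overlap a counted gene on the opposite strand. The partner of LUX, AT3G46650, had -0.09 ± 0.28 and that of FKF1, AT1G68060, had -0.05 ± 0.12. The partner of ELF3, AT2G25940, had -0.42 ± 0.36, and that of BOA, AT5G59580, reached at most 0.326 CPM and was not tested.

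TOC1 and GI, 2 evening genes that CCA1 represses, did not separate the groups. TOC1 (AT5G61380) stood at 22.7, 20.7, 28.2 and 18.6 CPM in EtOH_3d, against 23.4, 21.9 and 20.8 CPM in moc_3d, a log2 fold change of 0.05 ± 0.13 with a 95% interval of -0.21 to 0.31. GI (AT1G22770), a partner of FKF1 and ZTL, stood at 39.6, 32.8, 30.4 and 42.5 CPM in EtOH_3d, against 32.01, 34.0 and 33.8 CPM in moc_3d. Its ethanol libraries spread on both sides of the controls, and the log2 fold change was 0.13 ± 0.11 (95% interval -0.09 to 0.34). PRR5 (AT5G24470), the afternoon repressor, stood at 43.2, 38.2, 45.5 and 42.9 CPM in EtOH_3d, against 41.7, 45.5 and 44.1 CPM in moc_3d. Its libraries overlap, with a log2 fold change of -0.04 ± 0.09. FKF1 had a log2 fold change of 0.46 ± 0.18 (adjusted p = 0.386), with an average of 13.4 ± 2.5 CPM in EtOH_3d and 9.67 ± 1.6 CPM in moc_3d (SD, n = 4 and 3). PRR3 and JMJD5, a histone demethylase, had 0.06 ± 0.26 and -0.11 ± 0.23.

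CCR2 and CCR1, also known as GRP7 and GRP8, encode RNA-binding proteins of a clock-driven slave loop and took the most counts of the members. CCR2 stood at 2098, 1952, 2234 and 2197 CPM in EtOH_3d, against 1918, 1941 and 1976 CPM in moc_3d. Its log2 fold change was 0.12 ± 0.05 (adjusted p = 0.431), with replicate 2 of EtOH_3d among the controls. CCR1 had -0.07 ± 0.05, so the estimates of the pair had opposite signs.

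Among the 6 unclassed genes, CHE, a TCP factor that represses CCA1, was the one with an unadjusted p under 0.05. CHE (AT5G08330) stood at 77.0, 80.3, 81.1 and 80.6 CPM in EtOH_3d, against 69.3, 76.8 and 62.1 CPM in moc_3d. The groups do not overlap, but the gap between the lowest ethanol and the highest control library was small. The log2 fold change was 0.20 ± 0.08 (adjusted p = 0.383), and unadjusted p was not under 0.05 without moc_3d replicate 4. ZTL stood at 20.8, 18.8, 26.5 and 18.1 CPM in EtOH_3d, against 17.0, 17.9 and 21.6 CPM in moc_3d. LKP2 stood at 9.11, 11.6, 8.82 and 10.5 CPM in EtOH_3d, against 12.4, 7.89 and 8.02 CPM in moc_3d. Both overlap, with log2 fold changes of 0.17 ± 0.14 and 0.09 ± 0.19. LWD2, a WD-repeat activator of CCA1, stood at 15.3, 12.6, 10.9 and 11.9 CPM in EtOH_3d, against 11.0, 11.9 and 12.0 CPM in moc_3d, a log2 fold change of 0.11 ± 0.17. LWD2 overlaps the much more counted AT3G26650 on its own strand. LWD1 and TIC had 0.00 ± 0.11 and 0.02 ± 0.11.

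After 1 d of ethanol, no clock gene was called either. In EtOH_1d against moc_1d, edgeR called 0 of 34 members and 0 of 18419 genes (0%), and DESeq2 and limma-voom called no member. The count at an unadjusted p under 0.05 was 6 of 34 (17.6%), 5 higher and 1 lower, against 4.32% of all genes. It was 1 without moc_1d replicate 4. The libraries of 4 members did not overlap, all above the controls, while 6.12% of all genes do not overlap. The smallest adjusted p was 0.844, and 11 of 14 evening genes had a positive estimate with a median of 0.17.

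COR28 had the smallest p at 1 d as among evening genes at 3 d. It stood at 10.4, 10.1, 13.8 and 7.83 CPM in EtOH_1d, against 5.87, 6.80 and 8.69 CPM in moc_1d. The log2 fold change was 0.59 ± 0.20, and unadjusted p was under 0.05 in all 7 fits without 1 library. EtOH_1d replicate 4 lay within the controls and the other 3 lay above them. Its partner COR27 stood at 6.02, 4.16, 9.28 and 4.78 CPM in EtOH_1d, against 4.38, 5.77 and 6.07 CPM in moc_1d, a log2 fold change of 0.20 ± 0.23 with overlapping libraries.

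The other 5 genes with an unadjusted p under 0.05 at 1 d were RVE7, LNK1, PRR5, ELF4 and FKF1. RVE7 stood at 20.9, 21.3, 21.2 and 20.3 CPM in EtOH_1d, against 18.8, 15.9 and 15.3 CPM in moc_1d (log2 fold change 0.32 ± 0.13). PRR5 stood at 52.3, 50.5, 54.2 and 51.1 CPM in EtOH_1d, against 47.2, 48.8 and 40.8 CPM in moc_1d (0.18 ± 0.09). Neither gene's groups overlap. LNK1 stood at 48.5, 61.3, 50.2 and 50.2 CPM in EtOH_1d, against 65.9, 53.1 and 63.8 CPM in moc_1d (-0.22 ± 0.09). ELF4 stood at 49.3, 45.4, 45.0 and 44.2 CPM in EtOH_1d, against 32.5, 45.6 and 40.01 CPM in moc_1d (0.23 ± 0.11). Both overlap, in LNK1 through EtOH_1d replicate 2 and in ELF4 through moc_1d replicate 3. FKF1 had 0.34 ± 0.16.

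CCA1, LHY and RVE4 did not have an unadjusted p under 0.05 at 1 d. CCA1 stood at 16.3, 11.6, 11.5 and 14.9 CPM in EtOH_1d, against 14.6, 13.9 and 13.6 CPM in moc_1d, a log2 fold change of -0.03 ± 0.16. LHY stood at 4.10, 4.70, 4.16 and 4.02 CPM in EtOH_1d, against 4.64, 4.02 and 2.30 CPM in moc_1d (0.15 ± 0.25). Over the fits without 1 library the LHY estimate ran from -0.05 to 0.36, so a difference in this low gene is not excluded. RVE4 stood at 64.2, 61.7, 59.4 and 59.1 CPM in EtOH_1d, against 57.5, 62.3 and 54.1 CPM in moc_1d (0.07 ± 0.09). The groups overlap for each of these genes. LNK3 stood at 24.3, 22.3, 21.4 and 21.0 CPM in EtOH_1d, against 27.2, 25.8 and 20.3 CPM in moc_1d, a log2 fold change of -0.14 ± 0.12.

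Values at 1 d of the other core genes were as follows. PRR7 stood at 75.4, 67.8, 74.7 and 76.0 CPM in EtOH_1d, against 72.0, 87.9 and 78.2 CPM in moc_1d (log2 fold change -0.11 ± 0.08). TOC1 stood at 23.5, 21.7, 20.8 and 18.5 CPM in EtOH_1d, against 21.4, 23.2 and 20.7 CPM in moc_1d (-0.04 ± 0.12). In both genes the groups overlap, as they do for PRR9, with 12, 11, 12 and 2 counts in EtOH_1d, against 2, 10 and 6 counts in moc_1d. GI stood at 35.4, 33.1, 40.3 and 33.2 CPM in EtOH_1d, against 34.3, 32.4 and 31.5 CPM in moc_1d (0.12 ± 0.10). ELF3 stood at 15.8, 15.6, 16.3 and 17.5 CPM in EtOH_1d, against 16.6, 19.4 and 15.1 CPM in moc_1d (-0.07 ± 0.14). LUX stood at 28.1, 30.4, 32.7 and 28.8 CPM in EtOH_1d, against 23.6, 27.6 and 26.7 CPM in moc_1d (0.21 ± 0.12). GI and ELF3 overlap, while every LUX library of EtOH_1d lay above the controls.

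Of the unclassed genes at 1 d, LKP2 had no overlap. It stood at 9.43, 9.04, 9.75 and 11.6 CPM in EtOH_1d, against 7.97, 8.14 and 8.20 CPM in moc_1d (0.30 ± 0.18). CHE stood at 71.9, 74.0, 73.6 and 78.8 CPM in EtOH_1d, against 76.3, 72.6 and 74.1 CPM in moc_1d (0.00 ± 0.08). The CHE groups overlap, with EtOH_1d replicate 1 below and replicate 4 above all controls. ZTL stood at 22.9, 19.7, 22.6 and 21.1 CPM in EtOH_1d, against 23.1, 20.9 and 20.3 CPM in moc_1d. LWD2 stood at 12.5, 12.7, 10.8 and 12.3 CPM in EtOH_1d, against 11.9, 9.48 and 11.6 CPM in moc_1d (0.13 ± 0.15). Both overlap.

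The difference between the ethanol responses at 3 d and 1 d was itself tested, and no member passed. EdgeR called 0 of 34 members and 0.0434% of all genes. Unadjusted p was under 0.05 for 2 members, against 5.56% of all genes. DESeq2 gave 1 such member and called none. These 2 were RVE2, with a log2 difference of -0.88 ± 0.43, and RVE4, with 0.25 ± 0.12, at adjusted p of 0.883 and 0.888. For LNK3 the log2 difference was -0.27 ± 0.18, for CCA1 -0.35 ± 0.24 and for COR28 0.03 ± 0.29. The data therefore do not show that any clock gene responded otherwise at 3 d than at 1 d.

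Between the ethanol groups, LNK3 was lower in EtOH_3d than in EtOH_1d and was the 1 member called. Its 4 values in EtOH_3d, 14.9 to 17.2 CPM, lay below its 4 values in EtOH_1d, 21.0 to 24.3 CPM. The log2 fold change was -0.47 ± 0.12 (edgeR adjusted p = 0.0342), and without EtOH_3d replicate 2, which stood apart, it was -0.50 (adjusted p = 0.0411). Of all genes 1% were called. The call held in the 10 alternatives that keep all the libraries of these groups. It was lost in 6 of the 8 fits that leave out 1 library of these groups, with an adjusted p of 0.0521 to 0.17 and log2 fold changes of -0.50 to -0.42. These were the fits without EtOH_3d replicate 1 (adjusted p = 0.0577), 3 (0.105) or 4 (0.119) and without EtOH_1d replicate 1 (0.17), 2 (0.0597) or 3 (0.0521). The same difference between the controls, moc_3d against moc_1d, was -0.21 ± 0.13 for LNK3. Exposure began at an age of 11 d for 3 d or of 13 d for 1 d, so age at its end was the same. The effects of age at the start and of duration cannot be told apart. This comparison shares its EtOH_3d libraries with that against moc_3d and its EtOH_1d libraries with that against moc_1d.

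At an unadjusted p under 0.05 there were 10 of 34 members (29.4%) in EtOH_3d against EtOH_1d, 3 higher and 7 lower, against 10.2% of all genes. LNK3, PRR5 and RVE2 had no overlap, all below, while 5.9% of all genes do not overlap. Of the 14 morning genes, 10 had a negative estimate, with a median of -0.18, against 9239 of 18419 genes and a median of 0 over all genes. Between the controls, 11 of the 14 had a negative estimate. An unadjusted p under 0.05 was found for 6 morning genes in the ethanol groups, all lower, and of these LNK3 passed the adjusted test. CCA1 stood at -0.54 ± 0.16 (adjusted p = 0.105), beside -0.18 ± 0.17 between the controls. CDF1 stood at -0.48 ± 0.14 (adjusted p = 0.0879), beside -0.18 ± 0.15 between the controls, and it was called without EtOH_3d replicate 2 (-0.61, adjusted p = 0.0232). RVE2 stood at -0.78 ± 0.29, beside 0.10 ± 0.32 between the controls. RVE7 had -0.33 ± 0.13 and LNK1 -0.18 ± 0.09. Among evening genes PRR5 had -0.29 ± 0.08 (adjusted p = 0.0854), beside -0.06 ± 0.10 between the controls. COR27 had 0.55 ± 0.21, COR28 0.53 ± 0.18 and CCR2 0.14 ± 0.05, while COR28 also had 0.50 ± 0.22 between the controls.

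Between the control groups, no member was called in moc_3d against moc_1d by edgeR, where 0.842% of all genes were. DESeq2 and limma-voom called none. Unadjusted p was under 0.05 for 3 of 34 members, RVE1 (0.47 ± 0.23), LNK4 (-0.27 ± 0.12) and COR28 (0.50 ± 0.22), against 9.34% of all genes. That count was 0 without moc_1d replicate 2 and 1 without moc_3d replicate 2 or replicate 4. Libraries of RVE4, LNK2 and LNK4 did not overlap, all below, while 15.7% of all genes do not overlap. As in the ethanol groups, most morning genes had a negative estimate (11 of 14, median -0.14).

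**Figure D4:**
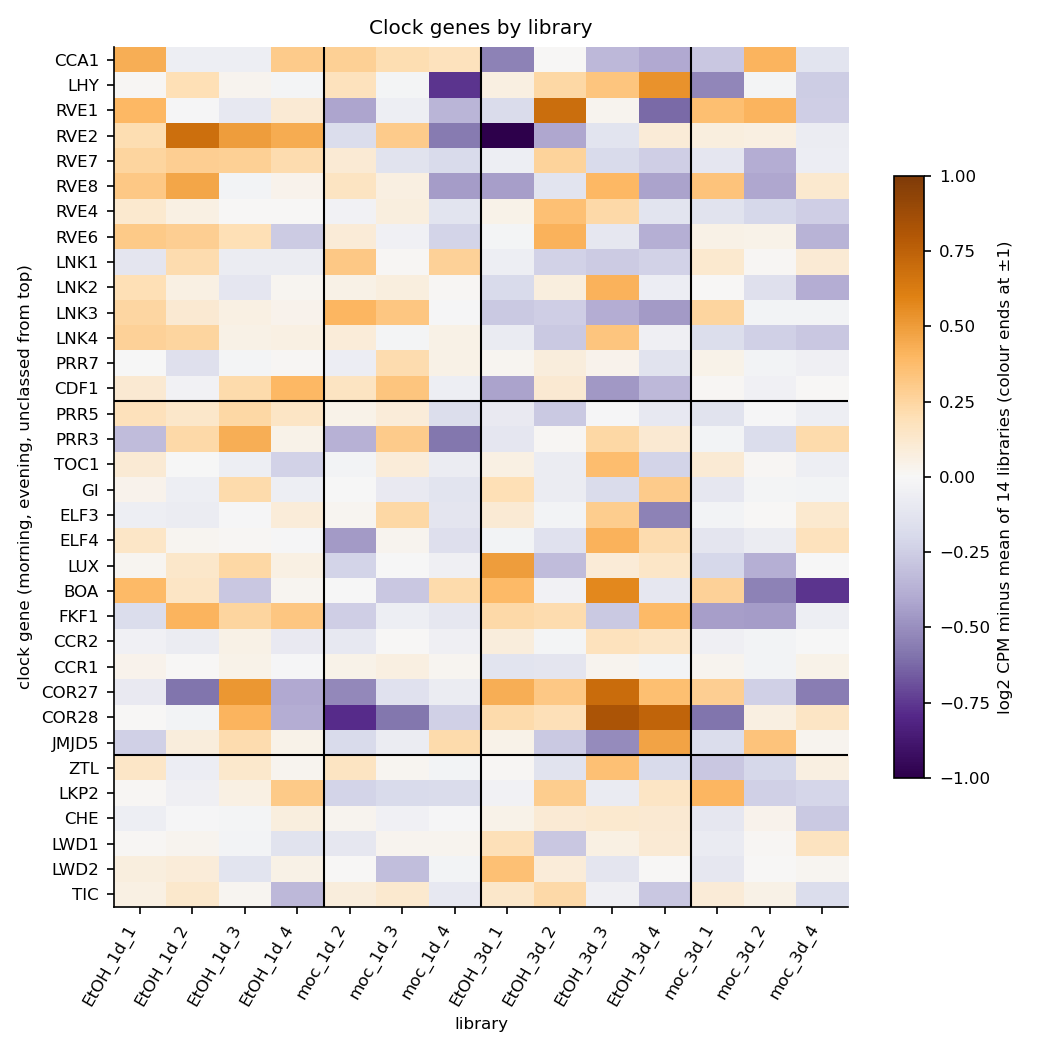
Log2 CPM of the 34 tested clock genes in each of the 14 libraries, minus the gene's mean over all 14, by class and group. In the evening rows the 4 EtOH_3d libraries average -0.04 to 0.20 and the 3 moc_3d libraries -0.11 to -0.06. The EtOH_3d replicates are spread more widely than those of moc_3d, and the lowest of them lies just above the highest moc_3d library.

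Averaged over the 14 evening genes, log2 CPM relative to the mean of all libraries was 0.14, -0.04, 0.20 and 0.13 in EtOH_3d, against -0.09, -0.11 and -0.06 in moc_3d. It was 0.00, 0.02, 0.16 and -0.03 in EtOH_1d, against -0.20, -0.03 and -0.09 in moc_1d. The evening genes of EtOH_3d replicate 2 were near its controls, and those of EtOH_1d replicate 4 were level with moc_1d replicate 3. For the morning genes the same average was -0.23, 0.07, -0.01 and -0.20 in EtOH_3d, against 0.00, -0.04 and -0.14 in moc_3d, with full overlap. These averages are a description of the chosen genes and carry no test.

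Clock genes varied between replicates about as much as other genes. The median residual SD of log2 CPM was 0.19 over the 34 members and 0.2 over all genes tested. The smallest were CCR1 (0.05) and CCR2 (0.06), the deepest counted. RVE1, LNK2, ELF4, LUX, COR27, COR28 and TIC lay above percentile 75 among genes within 0.5 log2 units of their level. These 7 of 34 are a share no higher than the percentile itself gives.

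Across the 14 libraries, with group means removed, 6 pairs of members were compared, and none passed after adjustment over the 6. CCR2 and CCR1 had the highest correlation, with Pearson r = 0.72 (permutation p = 0.0239, adjusted p = 0.144) and Spearman rho = 0.75 (permutation p = 0.0132, adjusted p = 0.0791). Without the 2 libraries farthest from the CCR2 median, EtOH_3d replicates 3 and 4, r was 0.46. CCA1 and LHY had r = 0.26 and rho = 0.33, and ELF4 and LUX had r = 0.37 and rho = 0.42. CCA1 and TOC1 had r = -0.08 and LHY and GI r = 0.22, which were -0.25 and 0.12 without the 2 farthest libraries. COR27 and COR28 had r = 0.23, which turned to -0.28 without EtOH_3d replicate 3 and EtOH_1d replicate 3. All of these values share library depth and scaling.

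Genes around the clock were read from a list of 30 light-input, regulatory and output genes, of which 28 were tested. After 3 d of ethanol 0 of 28 were called by edgeR, where 0.554% of all genes were. An unadjusted p under 0.05 was found for 2 (7.14%), against 8.82% of all genes, a share no higher than the background. BZIP63, a sugar-signalling factor that binds the PRR7 promoter, stood at 56.7, 53.2, 63.7 and 59.9 CPM in EtOH_3d, against 43.2, 47.7 and 48.5 CPM in moc_3d. All 4 ethanol libraries lay above the controls, with a log2 fold change of 0.33 ± 0.09 (adjusted p = 0.0662), while PRR7 itself had 0.01 ± 0.08. At 1 d the estimate of BZIP63 had the other sign: it averaged 48.8 ± 3.5 CPM in EtOH_1d and 53.5 ± 1.9 CPM in moc_1d (SD, n = 4 and 3), a log2 fold change of -0.13 ± 0.08. The moc_1d libraries, at 52.2 to 55.7 CPM, lay within or close to the range of EtOH_3d, 53.2 to 63.7 CPM. COL2, a relative of the flowering regulator CO, lay below its controls with -0.30 ± 0.14 (adjusted p = 0.551).

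In EtOH_3d against EtOH_1d, 2 of the 28 were called, both lower, where 1% of all genes were called. COL2 stood at 18.4, 17.5, 14.3 and 17.9 CPM in EtOH_3d, against 30.9, 29.9, 25.6 and 23.8 CPM in EtOH_1d (log2 fold change -0.70 ± 0.13, edgeR adjusted p = 0.000526). CDF3, a relative of CDF1, stood at 28.8, 26.1, 23.2 and 21.1 CPM in EtOH_3d, against 37.9, 37.8, 34.4 and 32.7 CPM in EtOH_1d (-0.53 ± 0.10, adjusted p = 0.00165). Neither gene's groups overlap, and both calls held in all 14 fits without 1 library and in the 10 other alternatives. Between the controls, moc_3d against moc_1d, the same genes had -0.44 (adjusted p = 0.138) and -0.39 (adjusted p = 0.107). Both had been chosen for the list with earlier results of these data known.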

How the data were processed

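RNA of whole seedlings was made into libraries by Lasy-Seq, per the labels' protocols, a 3′ sequencing method that pools barcoded samples, so reads fall near transcript ends. Per the submitters' processing notes, the build was TAIR10 and the tools included HISAT2, featureCounts, Trimmomatic, bcl2fastq and DESeq2. The authors deposited raw read counts for 27416 genes in 16 columns, with no normalization. Their second table, of normalized values, was not used. The sources used here do not give the strand setting of the counting.

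The 2 identical columns were left out of both groups. The 14 remaining libraries were filtered with filterByExpr (18419 genes), scaled by TMM and fitted together with edgeR 4.0.16 in R 4.3.3, by a robust quasi-likelihood model of the 4 groups, in a script tested on simulated data. Tests were two-sided, and Benjamini-Hochberg adjustment ran over all genes in each comparison. SE were derived from the test statistic, and 95% intervals are 1.96 SE. CPM use the TMM-adjusted library sizes, and log2 CPM a prior count of 2. Pairs of members were tested with 100000 permutations within groups.

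Totals of 3695511 to 15943927 counts make 3 counts equal to 0.188 to 0.812 CPM. These floors cover counting error only.

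The members, their classes and the gene lists were chosen with earlier results of these data known. Given with values in every library are members called in any comparison, the 2 with the smallest p of each class in each ethanol comparison, and CCA1, LHY, PRR9, PRR7, PRR5, TOC1, GI, ELF3, ELF4, LUX, COR27 and COR28. CCR2 and, for some values, other members were added after their values were seen.

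Alternatives were other scalings (RLE, upper quartile), DESeq2 1.42.0, limma-voom (limma 3.58.1), no low-count filter, other uses of the identical columns, only the groups compared, a replicate block and each library left out. All 35 members matched the RefSeq annotation of TAIR10.1, from which sequences and coordinates were taken. Transcript ends of 500 nt were searched with BLAST 2.17.0 for loci that share at least 100 nt at 95% identity, which 5 members have.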

Additional observations from a re-analysis of the deposited data

Results flagged for a closer look

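In 3 of 68 groups of 4 ethanol libraries (34 genes in EtOH_3d and in EtOH_1d), 1 library stood far from the other 3, by a gap whose share of the group's range was above Dixon's 95% critical value. Chance gives about 1 such group in 20, and 4.41% were found. For LNK1 in EtOH_3d, replicate 1 was the highest at 50.6 CPM, with a gap of 0.855 of the range, and the other 3 stood at 44.0 to 44.9 CPM. Without that library the log2 fold change of LNK1 against moc_3d was -0.32, beside -0.28 with it. For LNK1 in EtOH_1d, replicate 2 was the highest at 61.3 CPM, with a gap of 0.849, and the other 3 stood at 48.5 to 50.2 CPM. Without it the log2 fold change against moc_1d was -0.30, beside -0.22. For PRR7 in EtOH_1d, replicate 2 was the lowest at 67.8 CPM, with a gap of 0.85, and the other 3 stood at 74.7 to 76.0 CPM. Without it the log2 fold change against moc_1d was -0.07, beside -0.11.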

How the results depend on the processing

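For the 19 named members that were tested, 95 log2 fold changes were recomputed under 14 alternatives that leave out a library and 10 others, 2243 values in all, and 2234 kept their side of the threshold with no reversal. Another 101 sign changes, counted among these, lay within 1 SE of 0. The threshold was passed or lost in 8 values, of LNK3 (6) and RVE4 (2), given with the results. LKP2 in moc_3d against moc_1d had 0.20, and -0.0265 to 0.31 over the fits without 1 library, so it reversed. The correlation of COR27 and COR28 reversed to -0.28 without the 2 farthest libraries.

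Members called in EtOH_3d against moc_3d numbered 0, but 1 (RVE4) with no low-count filter, and 0 to 1 over the fits without 1 library. The count at an unadjusted p under 0.05 was 13 there, and 8 to 14 over those fits. In EtOH_1d against moc_1d it was 6, and 1 to 8. For the difference of responses it was 2, and 0 to 3. It was 1 with upper-quartile scaling, DESeq2, 16 columns or the shared library as moc_3d replicate 3, and 4 with that library as moc_1d replicate 1. In EtOH_3d against EtOH_1d, 1 member was called, and 0 to 2 over the fits without 1 library. In moc_3d against moc_1d the count at an unadjusted p under 0.05 was 3, and 0 to 4, with 0 for 16 columns and 1 with the shared library as moc_1d replicate 1.

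Over all genes, the calls in EtOH_3d against moc_3d were 102, and 66 to 196 over the alternatives that keep all libraries and 43 to 124 without 1 library. In EtOH_1d against moc_1d they were 0, then 0 to 28 and 0 to 5. For the difference they were 8, then 0 to 47 and 1 to 23. In EtOH_3d against EtOH_1d they were 185, then 131 to 313 and 128 to 234. In moc_3d against moc_1d they were 155, then 5 to 283 and 67 to 158. The causes were not tested.

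Same-numbered libraries did not deviate together: over 18 pairs the correlation of deviations from the group means was -0.08 to 0.06. Over 55 other pairs it was -0.05 to 0.1. The labels do not say whether the numbers pair the samples. These correlations cannot decide it, because deviations of single libraries also hold counting error. With a replicate block the difference of responses had 1 member with an unadjusted p under 0.05, EtOH_3d against moc_3d had 9 and no member called, and LNK3 was again the 1 member called in EtOH_3d against EtOH_1d. The replicate block gave 109, 12, 10, 250 and 146 genes called in the comparisons in the order above. Low counts limit some members: PRR9 was below the filter, and BOA and RVE2 had SE of 0.42 and 0.33 at 3 d. The last 500 nt of PRR9 are shared in full with AT2G46670. Those of BOA are shared in full with AT5G59580, which overlaps it on the opposite strand. Their counts may be split or shared, and this cannot be told apart from limited depth.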
